A study of Rattus norvegicus with 2 samples.

Results

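The rows described here are the small nucleolar RNA (snoRNA), Cajal body RNA and microRNA gene rows of a deposited gene table from rat cortical neurons. They were chosen by symbol (Snord, Snora, Scarna, Mir followed by a digit, or Mirlet7) and by a mean over both libraries of at least 1 FPKM. FPKM is the number of reads per kilobase of the row, scaled to the reads assigned in that library. Of 21224 rows, 370 had such a symbol and 223 passed the mean. These were 71 box C/D snoRNA rows, 33 H/ACA snoRNA rows, 9 Cajal body RNA rows, 108 microRNA precursor rows and 2 rows whose symbols mark microRNA host transcripts (Mir100hgl and Mir9-2hg). The other 147 rows with such a symbol lay below the mean. Because the members were selected on their level, their levels are a description and support nothing.

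The labels describe E18 rat neurons of the cortex, E18 being the embryonic day. The siNC library came from cells given a negative control small interfering RNA, and the siYthdf3 library from cells given one against Ythdf3, a reader of the m6A mark on messenger RNA. The labels name no strain, sex, time after transfection or number of animals. Each condition had 1 library, so no difference below could be set against a spread between replicates, and p-values are left out. Intervals are exact Clopper-Pearson 95% intervals of the FPKM value in siYthdf3 divided by that in siNC, and hold counting error alone.

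Ythdf3 was at 9.38 FPKM in siNC and 6.93 FPKM in siYthdf3, a ratio of 0.739 (interval 0.675 to 0.809). The libraries held 15392218 and 22586543 reads assigned to rows. The neuronal markers Map2, Tubb3, Rbfox3, Snap25 and Syt1 were all present and summed to 540.4 FPKM in siNC and 606 FPKM in siYthdf3. The 4 markers of dividing progenitors summed to 164 FPKM and 76.1 FPKM, the 4 astrocyte markers to 137 FPKM and 208 FPKM (Gfap alone at 68.2 FPKM and 141 FPKM), and the 4 of the oligodendrocyte lineage to 26.2 FPKM and 15.2 FPKM. The 4 microglia markers summed to 6.56 FPKM and 3.14 FPKM, but did not all go the same way. Aif1 and Tyrobp were lower in siYthdf3. P2ry12 was higher, at 0.858 FPKM and 1.24 FPKM (interval 0.987 to 2.15). Cx3cr1 had 2 reads in siNC and 0 in siYthdf3, too few to compare. The 4 vascular and meningeal markers summed to 8.34 FPKM and 9.35 FPKM, with Myh11 alone at 5.02 FPKM and 7.70 FPKM. The 3 vascular and meningeal markers with a mean of at least 1 FPKM had a median log2 difference of -0.59. In bulk RNA, fewer cells of a type and less RNA per cell cannot be told apart. The part of these marker differences in the results below was not tested.

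Box C/D snoRNAs guide the methylation of ribose in ribosomal and spliceosomal RNA, and H/ACA snoRNAs guide the conversion of uridine to pseudouridine. Small Cajal body RNAs do the same for spliceosomal RNAs. Most mammalian snoRNAs are cut out of introns of host genes, many of which encode ribosomal proteins or translation factors. MicroRNA precursors are hairpins that the nuclease Drosha releases from a longer transcript or an intron, and Dicer then cuts them into a mature microRNA, whose seed, bases 2 to 8, pairs with target messages.

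The library kit selected fragments of 200 to 500 bases, read as pairs of 150 bases. Of the 221 members other than the host transcripts, 219 were shorter than 200 bases, with a median length of 87 bases. A fragment counted in such a row was therefore as a rule longer than the row, and reads of the small RNA, of its precursor and of an overlapping transcript cannot be told apart. The values below describe reads over these loci and not amounts of mature snoRNA or microRNA. Such a fragment also adds a full read to a short length, which raises the FPKM of a short row against that of a long one.

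Mature sequences were available for 87 of the 108 microRNA precursor rows on the strand of the row, in a RefSeq table (assembly GRCr8), joined on the symbol. The first set belongs to 4 of the 6 precursor rows that were higher in siYthdf3 with an interval above 1. Capitals mark the seed.
rno-miR-34a-5p: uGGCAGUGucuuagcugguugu
rno-miR-34a-3p: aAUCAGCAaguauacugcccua
rno-miR-125b-1-3p: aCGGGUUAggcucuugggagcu
rno-miR-770-5p: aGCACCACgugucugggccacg
rno-miR-7578: cGUGGCUCgucuucugccucaga

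The second set belongs to the precursor rows that were lower in siYthdf3 with an interval below 1, again with the seed in capitals and 1 arm for each row. None of these seeds was shared with another sequence of the same set or of the set before.
rno-miR-24-3p: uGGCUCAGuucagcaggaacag
rno-miR-221-3p: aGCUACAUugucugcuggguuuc
rno-miR-3064-3p: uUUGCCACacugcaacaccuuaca
rno-miR-3594-5p: cCCAGGGCagagcagugugaa
rno-miR-3562: uUGGGGCAguggcuggauggga
rno-miR-6328: aGGCCUGCucugagcccccgc

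The hairpin of Mir34a, the member with the highest ratio among rows of at least 20 reads, is shown whole, with its 2 mature arms in capitals. Its length of 102 bases equals the length of the row in the table.
Mir34a hairpin: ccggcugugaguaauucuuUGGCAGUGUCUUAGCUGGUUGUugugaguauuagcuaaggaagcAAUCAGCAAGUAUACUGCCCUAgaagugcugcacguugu

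Most members rested on few reads. The median was 12.0 reads over both libraries, 84 members had under 10 reads, 54 had 10 to 19 and 85 had 20 or more. The siNC library had 0.0751% of its reads in members and the siYthdf3 library 0.0853%. Without the 2 host transcripts these shares were 0.0333% and 0.0332%. A row of 80 bases gains 0.812 FPKM from 1 read in siNC and 0.553 FPKM in siYthdf3, so the mean of 1 FPKM can be passed on 3 reads. Just inside it were Scarna6 at a mean of 1.00 FPKM, Snord1c at 1.01 FPKM and Mir27a at 1.02 FPKM. Just outside were Mir342 at 0.999 FPKM, Snord10 at 0.998 FPKM and Mir132 at 0.979 FPKM. Reads fell in only 1 library for 8 members, 5 of them without a read in siNC and 3 without one in siYthdf3, and a row that passes the mean through 1 library alone has to differ.

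**Figure D1:**
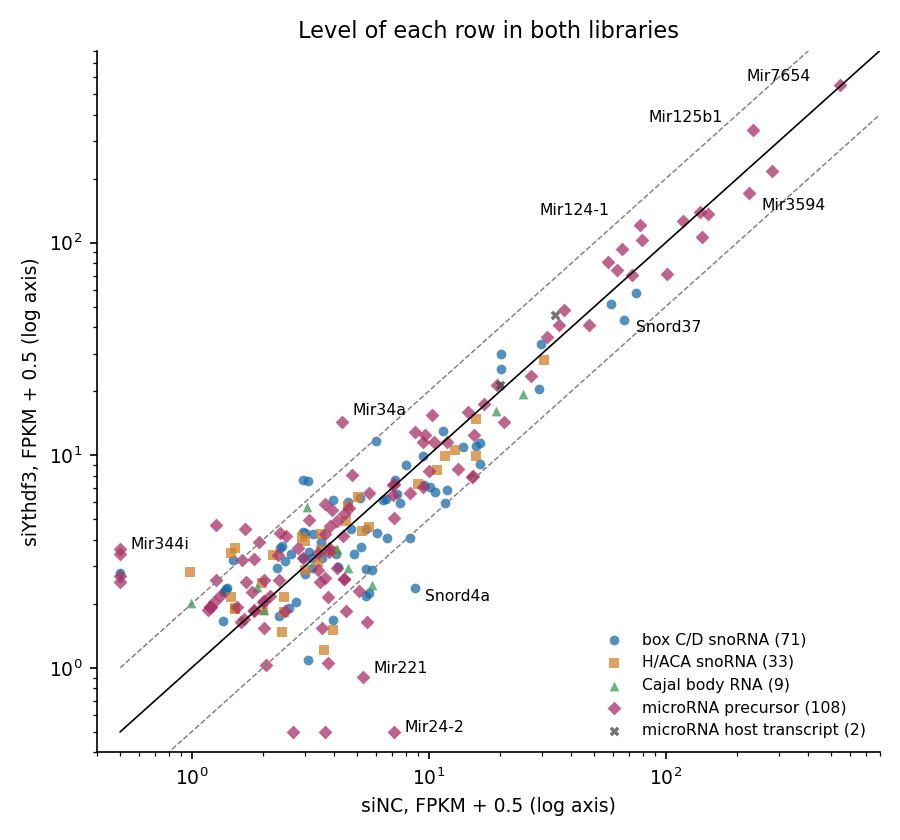
FPKM + 0.5 of each of the 223 rows in siNC (x axis) and siYthdf3 (y axis), both on log axes, with 1 point per row and the shape showing its class. The solid line marks equal values and the dashed lines 2-fold differences; the rows above 50 FPKM all lie between the dashed lines, and Mir34a, Mir24-2 and Mir221 lie outside them.

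The members as a whole did not lean one way. On the scale of log2(FPKM + 0.5) the median difference, siYthdf3 minus siNC, was 0.02 with quartiles of -0.41 and 0.40, where all 13172 rows at the same mean had a median of -0.01 and quartiles of -0.17 and 0.14. The median was also 0.02 with rows lacking reads in 1 library set at the floor of 3 reads. By class the medians were -0.11 for box C/D rows, -0.10 for H/ACA rows, -0.18 for Cajal body RNA rows and 0.06 for microRNA precursors. Members with at least 20 reads had a median of -0.13.

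At least 2-fold higher in siYthdf3 were 17 members (7.62%) and at least 2-fold lower were 18 (8.07%). All 5 members without a read in siNC were among the 17, and all 3 without one in siYthdf3 among the 18. Having passed the mean through 1 library alone, these rows had to differ. Other rows had reads in both libraries but lay below 1 FPKM in 1 of them, so the other library carried them past the mean. Examples among the 17 were Snora30 at 0.485 FPKM and Mir25 at 0.773 FPKM in siNC. Examples among the 18 were Snora77b at 0.708 FPKM and Mir409 at 0.553 FPKM in siYthdf3. The 2-fold counts are therefore a description. The background over all rows at that mean was 0.706% higher and 0.896% lower. Other rows under 300 bases gave 11.6% higher and 6.76% lower. Those rows were deeper than the members, with 182 of 370 at 20 or more reads, beside 85 of 223 members. The share of members was lower than theirs upward and close to theirs downward, with no test of either difference. With at least 10 reads, 7 of 139 members were 2-fold higher and 6 were 2-fold lower, against backgrounds of 0.423% and 0.693%. With at least 20 reads 1 member was higher, Mir34a, and 1 was lower, Snord16.

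The counting interval lay above 1 for 8 members and below 1 for 8, or 3.59% each. Over all rows at that mean, most of them long and deep, 20% lay above and 22.2% below, and among those with at least 10 reads 20.2% and 22.5%. Among other rows under 300 bases 2.97% lay above and 6.22% below. The 8 above 1 were Mir34a, Mir124-1, Mir124-2, Mir125b1, Mir770, Mir7578, Mir100hgl and Mir9-2hg. The 8 below 1 were Mir24-2, Mir221, Mir3064, Mir3562, Mir3594, Mir6328, Snord37 and Snord4a. Without their siNC values Mir24-2, Mir221 and Snord4a would not have passed the mean. Both host transcript rows and 6 precursor rows thus lay above, and no snoRNA row did.

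**Figure D2:**
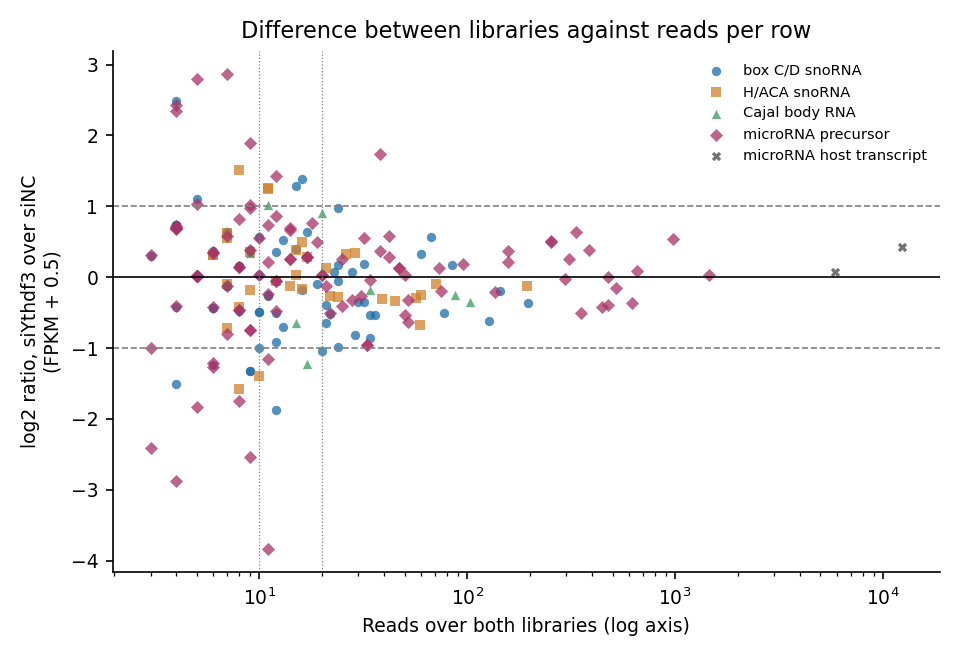
The log2 ratio of FPKM + 0.5, siYthdf3 over siNC (y axis), of each of the 223 rows against its reads over both libraries (x axis, log scale), with the shape showing the class. Dashed lines mark 2-fold differences and dotted lines 10 and 20 reads; the spread narrows to the right, and of the rows with at least 20 reads only Mir34a and Snord16 lie beyond the dashed lines.

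Mir34a encodes miR-34a, a microRNA that p53 induces. Positions are those of the deposited table, whose build the sources used here do not name. The Mir34a row (ENSRNOG00000035623, chromosome 5, 160533002 to 160533103, plus strand, in no other row of the table) was at 3.82 FPKM in siNC and 13.9 FPKM in siYthdf3. These values rest on 6 and 32 reads. The log2 difference was 1.74 and the ratio 3.63 (interval 1.50 to 10.6), the only member whose difference was 2-fold higher with an interval above 1. Mdm2, a p53 target that holds p53 in check, was at 34.6 FPKM and 42.4 FPKM, a ratio of 1.22 (interval 1.15 to 1.30). Of all rows that passed the mean, 20% likewise had an interval above 1. The part of p53 in the Mir34a difference was not tested.

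The miR-124 loci encode the most abundant microRNA of neurons. Mir124-1 (chromosome 15, 38842014 to 38842098) was at 77.2 FPKM in siNC and 120.3 FPKM in siYthdf3, a ratio of 1.56 (interval 1.23 to 1.99) on 101 and 231 reads. Mir124-2 (chromosome 2, 100134866 to 100134974) was at 78.7 FPKM and 102 FPKM, a ratio of 1.30 (interval 1.05 to 1.62). Mir124-3 (chromosome 3, 168014952 to 168015038) rested on few reads, at 8.96 FPKM and 6.62 FPKM on 12 and 13 reads, a ratio of 0.738 (interval 0.311 to 1.77). The first and second locus were thus higher in siYthdf3, and the third gave an interval that includes both directions. None of the 3 lies in another row.

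Mir125b1 encodes a microRNA of the miR-125 family, which is abundant in brain. Its row (chromosome 8, 41952966 to 41953052, plus strand) was at 233 FPKM in siNC and 339 FPKM in siYthdf3, a ratio of 1.45 (interval 1.27 to 1.67) on 312 and 666 reads. It lies inside the row Mir100hgl (chromosome 8, 41950987 to 41961199, plus strand), which was at 33.6 FPKM and 45.4 FPKM, a ratio of 1.35 (interval 1.30 to 1.40). The reads of Mir125b1 relative to those of Mir100hgl had a ratio of 1.08 between the libraries (interval 0.936 to 1.24). The precursor and the transcript around it were higher by amounts that counting error does not separate. Mir100 (3.25 FPKM and 1.66 FPKM, on 4 and 3 reads) lies on the same chromosome outside that row.

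A second host transcript row, Mir9-2hg (chromosome 2, 14179651 to 14200268, plus strand), was close in both libraries, at 19.6 FPKM and 20.8 FPKM, or 1.06 times as high (interval 1.01 to 1.12). The miR-9 genes act in neural progenitors and neurons. Inside it, on the minus strand, lies Mir3597-2, at 61.7 FPKM in siNC and 73.9 FPKM in siYthdf3, a ratio of 1.20 (interval 0.946 to 1.53). Mir3597-1 was at 34.9 FPKM and 40.6 FPKM, and Mir3597-3 at 5.08 FPKM and 6.16 FPKM. In the RefSeq table the hairpins of Mir3597-1, Mir3597-2 and Mir3597-3 overlap those of Mir9-1, Mir9-2 and Mir9-3 on the opposite strand by 89, 87 and 90 bases. No source used here says whether counting used strand, so reads of either strand cannot be told apart. The first arm below is listed for all 3 loci and the second for Mir3597-2 and Mir3597-3, with seeds in capitals.
rno-miR-9b-5p: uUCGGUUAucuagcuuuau
rno-miR-9b-3p: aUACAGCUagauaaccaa

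Other precursors with an interval above 1 were Mir770 and Mir7578. Mir770, from the imprinted Dlk1-Dio3 region (chromosome 6, 128515835 to 128515928), was at 56.7 FPKM in siNC and 80.5 FPKM in siYthdf3, a ratio of 1.42 (interval 1.09 to 1.87). Other members within that region had few reads and went both ways. Mir409 was at 3.25 FPKM and 0.553 FPKM on 4 and 1 reads, Mir1188 at 3.17 FPKM and 3.78 FPKM, and Snord113-3 at 1.83 FPKM and 1.25 FPKM. Mir7578 (chromosome 3, 10778090 to 10778171) lies in Brd3, a reader of acetylated histones, and was at 65.0 FPKM and 92.9 FPKM, a ratio of 1.43 (interval 1.09 to 1.88). Its host Brd3 had a log2 difference of 0.23. Mir22, which lies in no other row, was at 36.9 FPKM and 48.0 FPKM, with an interval of 0.926 to 1.84 that includes 1.

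Among the precursors that were lower, Mir24-2 had 11 reads in siNC and none in siYthdf3. It was at 6.62 FPKM in siNC and listed at 0 in siYthdf3, with an interval of the ratio from 0 to 0.272. It belongs to the cluster of miR-23a, miR-27a and miR-24-2 (chromosome 19, 23954683 to 23955071). The neighbours Mir27a and Mir23a had no read in siNC and 4 and 5 reads in siYthdf3. The 3 rows together held 11 and 9 reads, a ratio of 0.558 (interval 0.204 to 1.48). Each of these rows passed the mean through 1 library alone, so it had to differ, and the summed cluster gave an interval that includes 1.

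Mir221 (chromosome X, 3429465 to 3429573), whose microRNA lowers the cell cycle inhibitor p27, was at 4.77 FPKM in siNC and 0.406 FPKM in siYthdf3. The ratio was 0.0852 (interval 0.00192 to 0.635) on 8 reads and 1 read. The siNC value alone carried Mir221 past the mean of 1 FPKM, so its difference is a description. The cluster of miR-17 to miR-92a, which promotes cell division, had 3 members here, Mir20a, Mir19b1 and Mir92a1. Mir20a was at 3.06 FPKM and 1.04 FPKM, Mir19b1 at 2.99 FPKM and 2.04 FPKM, and Mir92a1 at 5.0 FPKM and 1.14 FPKM. Each of the 3 gave an interval that includes 1, with 4 reads of Mir19b1 in either library. Summed over 14 and 8 reads the ratio was 0.389 (interval 0.142 to 0.995). The siNC values of Mir20a and Mir92a1 alone carried them past the mean of 1 FPKM, so the sum is a description. The 4 markers of dividing progenitors, all with an interval below 1, had a median log2 difference of -1.12, and their part in this result was not tested. Mir92b was at 14.9 FPKM and 7.47 FPKM, with an interval of 0.233 to 1.06. Mir25 had 1 and 8 reads and an interval that includes 1, and its host Mcm7, a replication helicase subunit, was lower at a log2 difference of -0.54. Mir92a1, Mir92b and Mir25 share a seed, and their arms are shown for that reason, with the seed in capitals.
rno-miR-92a-3p: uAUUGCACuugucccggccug
rno-miR-92b-3p: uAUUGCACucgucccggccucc
rno-miR-25-3p: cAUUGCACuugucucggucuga

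Summed over these 3 loci, the reads were 26 and 24, a ratio of 0.629 (interval 0.346 to 1.14). The let-7 family, which rises as neural cells mature, had 5 members that share the seed GAGGUAG, and their 29 and 51 reads gave a ratio of 1.20 (interval 0.745 to 1.96). Mirlet7i led them at 9.18 FPKM and 12.0 FPKM. Of the 9 seeds shared by at least 2 members, none had a summed interval that excludes 1.

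The deeper precursors that were lower lie inside or opposite other genes. Mir3594 (chromosome 10, 105347412 to 105347476) and Mir3562 (chromosome 10, 105349519 to 105349630) lie in Cep131, a centriolar satellite protein gene. Mir3594 was at 225 FPKM in siNC and 171 FPKM in siYthdf3, a ratio of 0.760 (interval 0.632 to 0.914). Mir3562 was at 100.4 FPKM and 70.8 FPKM, a ratio of 0.705 (interval 0.569 to 0.874). Both were lower by more than their host, which was at 84.2 FPKM and 78.4 FPKM. Relative to the reads of Cep131, the ratios were 0.816 (interval 0.676 to 0.985) and 0.757 (interval 0.609 to 0.942). Of 146 members compared with a host in this way, 3 had an interval below 1, namely Mir3594, Mir3562 and Mir3064. They are thus picked from many pairs, some of which lie off 1 through counting error alone.

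Mir3064 (chromosome 10, 91725800 to 91725866) lies in Ddx5, an RNA helicase that takes part in Drosha processing. It was at 281 FPKM in siNC and 217 FPKM in siYthdf3, a ratio of 0.771 (interval 0.656 to 0.906). Relative to the reads of Ddx5 the ratio was 0.830 (interval 0.706 to 0.976), again picked from the 146 pairs. Mir6328 (chromosome 20, 2885300 to 2885396) was at 142 FPKM and 106 FPKM, a ratio of 0.746 (interval 0.616 to 0.903), and overlaps Ppp1r18 on the opposite strand. Mir7654, the precursor row with the most reads, lies in Arglu1, a splicing regulator gene, and hardly differed at 542 FPKM and 553 FPKM, a ratio of 1.02 (interval 0.917 to 1.13). Mir6321 in Rufy3 and Mir3583 in Dnajc8 also gave intervals that include 1, at 118 FPKM and 126 FPKM and at 139 FPKM in both libraries.

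**Figure D3:**
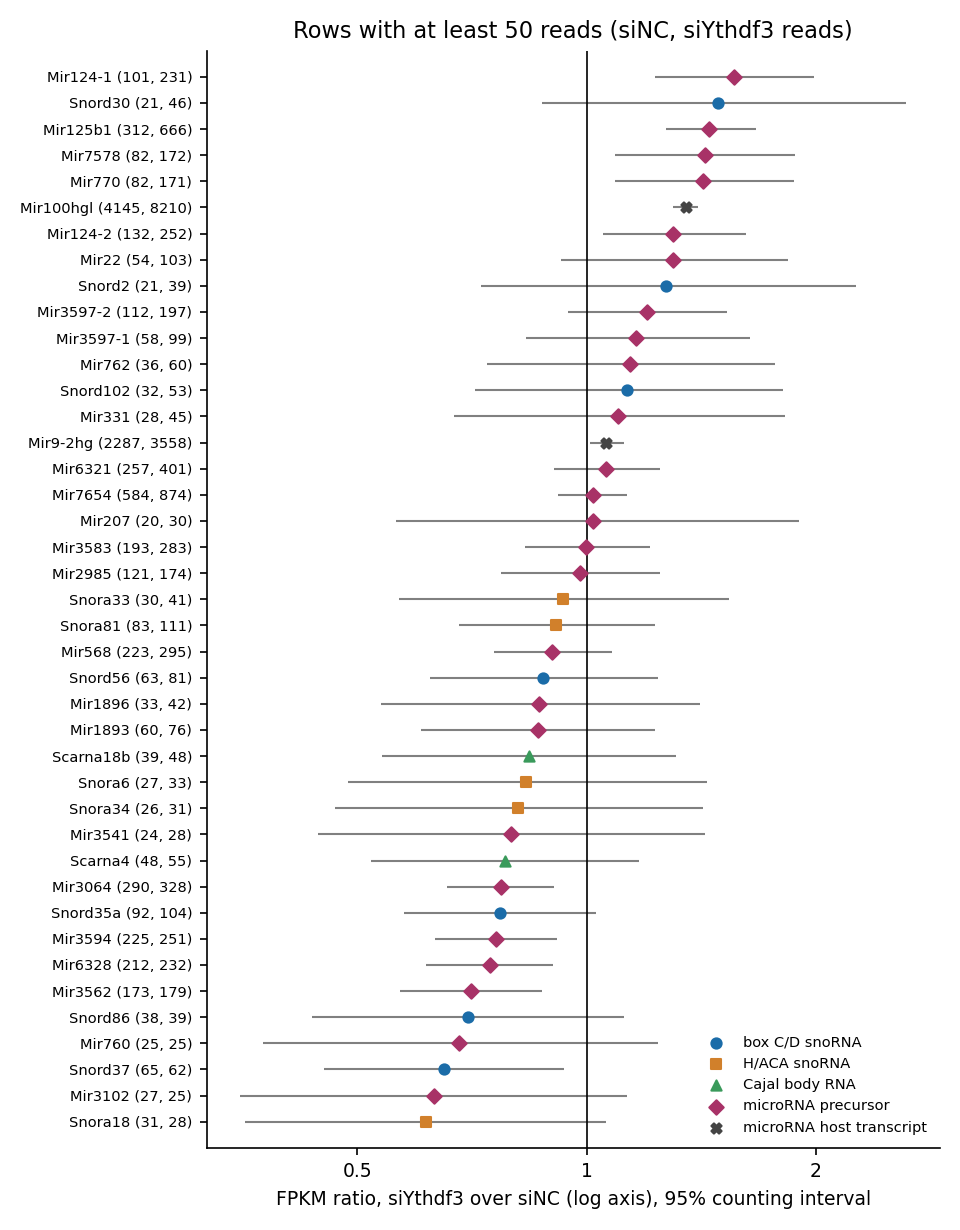
FPKM ratio, siYthdf3 over siNC (x axis, log scale), of the 41 rows with at least 50 reads, with 95% counting intervals as bars, the reads of siNC and siYthdf3 in brackets after each symbol, and the shape showing the class. Mir124-1, Mir125b1 and Mir7578 are among the rows whose bars lie above 1, Mir3562, Mir3594 and Snord37 among those below, and most other bars cross 1.

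Among the snoRNA rows, summed reads were lower in siYthdf3. The 113 snoRNA and Cajal body RNA rows held 1227 and 1592 reads, a ratio of 0.884 per assigned read (interval 0.820 to 0.953), where the whole table is at 1.000 by scale. Box C/D rows gave 0.869 (interval 0.788 to 0.960), H/ACA rows 0.922 (interval 0.804 to 1.06) and Cajal body RNA rows 0.859 (interval 0.681 to 1.09). Only the interval of the box C/D rows excludes 1, and the 3 intervals overlap each other. Of the 725 and 925 box C/D reads, Snord35a held 92 and 104 and Snord37 65 and 62. No sum without these 2 rows was computed, so the ratio need not hold for the other rows. Of the 71 box C/D rows, 39 were below 0 on the log2 scale and 32 above. Rescaled to TPM, the box C/D ratio was 0.900 (interval 0.816 to 0.993). Of the 113 rows, 63 were below 0 on the log2 scale and 50 above.

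Host rows here are rows without a snoRNA or microRNA symbol, so Mir125b1 counts as having none. Precursors without a host row gave a summed ratio of 1.16 (interval 1.09 to 1.23) over 58 rows, and of 1.09 (interval 1.02 to 1.17) without Mir125b1. Of the 58 rows, 5 had an interval above 1 and 3 below. The shares over all rows at that mean were 20% and 22.2%, and over other rows under 300 bases 2.97% and 6.22%. Without Mir125b1 the sums were 1313 and 2099 reads. Mir124-1 held 101 and 231 of these, Mir124-2 132 and 252, and Mir770 82 and 171. No sum without these deep rows was computed, so the ratio need not hold for the other rows. Precursors inside a host row gave 0.942 (interval 0.892 to 0.994) over 50 rows. That value was 0.985 (interval 0.929 to 1.05) without the Cep131 pair and 0.975 (interval 0.923 to 1.03) after rescaling to TPM. Both host transcripts together were at 1.25 (interval 1.21 to 1.29).

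**Figure D4:**
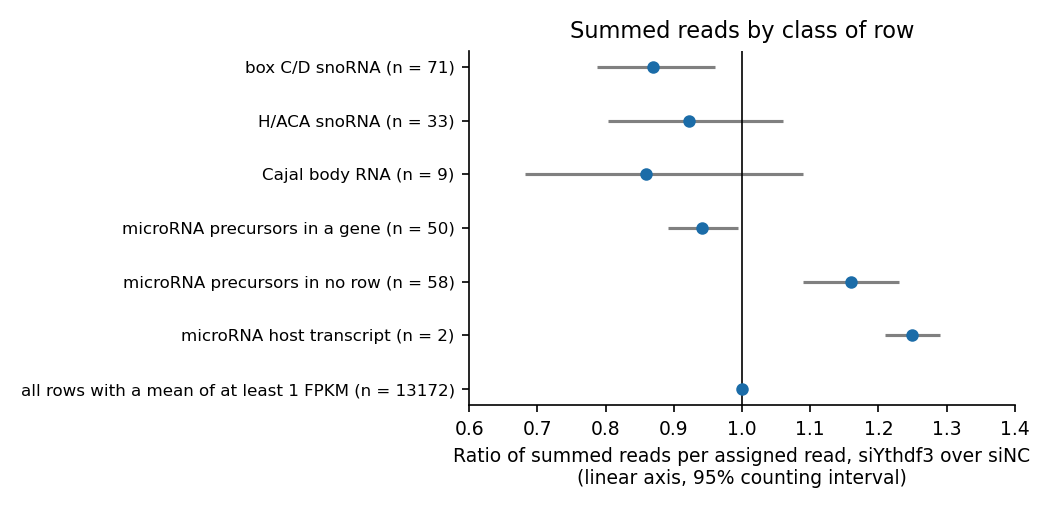
Ratio of summed reads per assigned read, siYthdf3 over siNC (x axis, linear), for each class of rows, with 95% counting intervals as bars and the number of rows in brackets. Box C/D rows lie at 0.869, precursors in no host row at 1.16 and host transcripts at 1.25, while all rows at that mean lie at 1.000.

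Of the snoRNA rows, Snord37 and Snord4a had an interval below 1. Snord37 (chromosome 7, 8536202 to 8536265) lies in Eef2, the translation elongation factor that moves the ribosome along the message. It was at 66.0 FPKM in siNC and 42.9 FPKM in siYthdf3, a ratio of 0.650 (interval 0.452 to 0.935) on 65 and 62 reads. Eef2 itself was at 358 FPKM and 305 FPKM, and relative to its reads the ratio of Snord37 was 0.762 (interval 0.529 to 1.10). The snoRNA row and its host were thus both lower, by amounts that counting error does not separate. Snord4a, in the ribosomal protein gene Rpl23a, was at 8.24 FPKM and 1.87 FPKM on 9 and 3 reads, a ratio of 0.227 (interval 0.0396 to 0.910). The siNC value alone carried Snord4a past the mean of 1 FPKM, so its difference is a description. Relative to the reads of Rpl23a, its ratio was 0.263 (interval 0.0458 to 1.05). Snord42a, in the same host, had a ratio of 1.14 between the libraries (interval 0.221 to 7.31). Snord35a was at 74.7 FPKM and 57.6 FPKM, with an interval of 0.576 to 1.03.

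Nop56 encodes a core protein of the box C/D particle and itself carries 5 members in its span (chromosome 3, 117477053 to 117481841). Snord56 was at 58.5 FPKM in siNC and 51.2 FPKM in siYthdf3, Snord86 at 28.7 FPKM and 20.1 FPKM, and Snord57 at 15.3 FPKM and 10.5 FPKM. Snora51 was at 10.3 FPKM and 8.05 FPKM and Snord110 at 4.71 FPKM and 3.21 FPKM. Each of the 5 gave an interval that includes 1, and summed over 144 and 166 reads the ratio was 0.786 (interval 0.625 to 0.989). Nop56 was at 105 FPKM and 93.5 FPKM, a ratio of 0.886 (interval 0.846 to 0.929).

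Taf1d, a factor of RNA polymerase I transcription, also carries 5 members, among them Snora18 at 15.4 FPKM and 9.46 FPKM and Snord6 at 16.0 FPKM and 10.9 FPKM. Their summed ratio was 0.710 (interval 0.506 to 0.998), beside 0.903 (interval 0.851 to 0.958) for Taf1d. Of 33 loci with at least 2 members within 10 kb, 4 had a summed interval below 1, those in Nop56, Taf1d and Cep131 and the cluster with Mir20a, and 0 had one above. In that cluster, Mir20a and Mir92a1 passed the mean through siNC. Single rows of the whole table lay below 1 in 22.2% and above in 20%, and sums over groups of other short rows were not computed.

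Other hosts carried members whose summed intervals include 1. In Rpl4, a large subunit protein gene at 222 FPKM and 188 FPKM, 3 members gave 0.555 (interval 0.301 to 1.01), with Snord16 at 7.87 FPKM and 3.58 FPKM. In Gnl3, the nucleolar protein nucleostemin, 3 members gave 0.818 (interval 0.510 to 1.32), and in Eif4a2, a translation initiation helicase, 3 members gave 0.966 (interval 0.756 to 1.24). Rpl21 was lower at a ratio of 0.725 (interval 0.705 to 0.746), whereas its 2 members Snord102 and Snora27 together gave 1.16 (interval 0.761 to 1.79). In Rack1, a protein of the small ribosomal subunit with a ratio of 0.802, Snord96a and Snord95 gave 2.45 (interval 0.878 to 8.45) on 5 and 18 reads. The intervals of the members of Rpl21 and Rack1 include both directions.

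In all, 146 members lay inside a host row of the same strand, in 110 different rows. These were 96 of the 113 snoRNA and Cajal body RNA rows and 50 of the 108 precursors. Of the 96, 23 lay in rows with a ribosomal protein symbol, and hosts listed under other symbols are not in that count. The median difference between a member and its host was -0.03 on the log2 scale. The reads of a member relative to those of its host had an interval above 1 for 2 members, Mir25 and Snord96a, both under 20 reads. The interval lay below 1 for 3 members, Mir3064, Mir3562 and Mir3594. Over 146 pairs, counting error alone puts some intervals off 1, and the intervals were not adjusted for the number of pairs. So few intervals off 1 do not separate these members from their hosts beyond counting error. FPKM was higher in the member than in its host in both libraries for 11 of the 146.

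Over the 61 such members with at least 20 reads, the Pearson r between the log2 differences of member and host was 0.30 and Spearman's rho 0.30. The points share the 2 libraries, and several share a host. For the 39 snoRNA and Cajal body RNA rows among them r was 0.13, with 28 members and 35 hosts below 0. For the 22 precursors r was 0.64 and rho 0.55, with 14 members and 11 hosts below 0. Both rows were below 0 in 25 of the 39 pairs, and most hosts were below 0 whichever way their member lay.

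**Figure D5:**
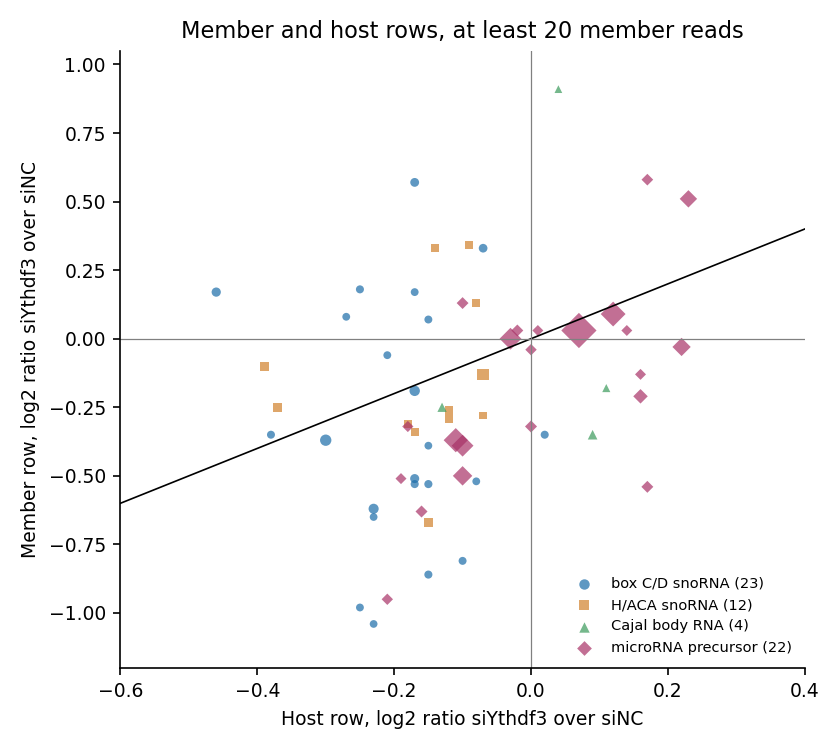
The log2 difference, siYthdf3 minus siNC, of each member with at least 20 reads (y axis) against that of its host row (x axis, narrower range), for 61 pairs, with the shape showing the class and larger points for more reads. The line marks equal differences; most snoRNA points lie at the lower left, where both rows are below 0, and the precursors extend to the upper right.

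The remaining extremes rested on few reads. The highest log2 differences included Snora30 at 0.485 FPKM and 2.31 FPKM on 1 and 7 reads, Mir219a1 at 1.18 FPKM and 4.02 FPKM on 2 and 10, and Snord66 at 2.60 FPKM and 7.08 FPKM on 3 and 12. Mir344i had no read in siNC and 7 in siYthdf3. Among the lowest were Snora77b at 3.12 FPKM and 0.708 FPKM on 6 and 2 reads, Snora41 at 3.45 FPKM and 1.01 FPKM on 7 and 3, and Scarna11 at 5.25 FPKM and 1.95 FPKM on 11 and 6. Mir298 had 4 reads in siNC and none in siYthdf3. Each of these members gave an interval that includes 1. At this depth a difference in such rows was not detectable unless it was several-fold.

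Genes that act with these RNAs differed by less than 2-fold. Of the 4 box C/D particle proteins, 4 had an interval below 1 and the median log2 difference was -0.23, against -0.01 over all rows and a background of 22.2%. Fibrillarin, the methyltransferase of the particle (Fbl), was at 29.1 FPKM in siNC and 23.4 FPKM in siYthdf3, and Snu13 at 23.4 FPKM and 19.1 FPKM. Intervals below 1 were found for 3 of the 6 H/ACA proteins, and their median log2 difference was -0.20. The pseudouridine synthase Dkc1 was at 74.5 FPKM and 65.6 FPKM, and Nop10 at 14.2 FPKM and 11.0 FPKM. Of the 11 snoRNP assembly factors 2 lay below 1, Ruvbl1 and Ruvbl2, and none above, with a median of -0.06.

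Of 34 listed snoRNA host genes 17 matched a symbol in the table, with 15 intervals below 1 and 1 above, against 22.2% and 20% of all rows, and a median log2 difference of -0.19. Rcc1, a chromatin factor of the cell cycle, was at 7.21 FPKM and 3.76 FPKM, Rpl7a at 195 FPKM and 148 FPKM, and Cwc22, a splicing factor, at 55.9 FPKM and 62.0 FPKM. Among 14 genes of the nuclear exosome and of 3′ trimming, 6 lay below 1 and none above, against 22.2% and 20% of all rows. Exosc8 was at 9.61 FPKM and 6.21 FPKM and Exosc7 at 14.1 FPKM and 10.3 FPKM. Median row lengths were 1559 bases for box C/D proteins, 2186 for H/ACA proteins and 2245 for assembly factors. They were 2265 for the host genes and 2213 for the exosome genes, beside 2917 over all rows. Some host rows were deep, such as Ncl with 66513 and 91711 reads, where a small difference puts an interval off 1. The part of row length and depth in these counts was not tested.

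In microRNA processing, 4 of the 10 genes at that mean had an interval below 1 and 2 above, where the shares of all rows were 22.2% and 20%. Drosha was at 70.0 FPKM in both libraries and its partner Dgcr8 at 28.5 FPKM and 28.6 FPKM. The export factor Ran was at 86.0 FPKM and 63.7 FPKM, and Dicer1 at 10.5 FPKM and 13.5 FPKM, a ratio of 1.29 (interval 1.20 to 1.38). Of the 7 genes of the Argonaute proteins and their silencing partners, 6 had an interval above 1 and none below, with a median of 0.35 against a background of 20%. Ago3 was at 1.28 FPKM and 1.94 FPKM, Ago4 at 2.36 FPKM and 3.47 FPKM and Tnrc6a at 14.7 FPKM and 18.8 FPKM, while Ago1 was at 13.6 FPKM and 13.7 FPKM. These 7 rows are long, with a median length of 7567 bases, and the longest decile of all rows had a median log2 difference of 0.11, beside -0.08 in the shortest. The part of row length in this result was not tested.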

How the data were processed

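Per the file headers, the deposited values are FPKM for 1 siNC and 1 siYthdf3 library, beside row coordinates and lengths. The Length column served to recover reads, to set the floor of 3 reads and to compare and group rows by length. The submitters' processing notes name, without roles, StringTie 2.1.4, edgeR 3.40.2, Subread 1.5.1 with featureCounts, STAR 2.7.6a and fastp 0.23.2. The sources used here do not give the genome build, the annotation release, the use of strand or any collapsing by the molecular identifier of 12 bases. Reads were recovered by dividing the product of FPKM and length by its smallest step in each library, and 100% of values came within 0.05 of a whole read. No count test was run.

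Differences are log2 ratios after adding 0.5 FPKM, which understates low rows. Differences of at least 2-fold were counted. Intervals of a ratio are Clopper-Pearson intervals of the share of reads in siYthdf3, and intervals of member against host reads are conditional exact intervals of an odds ratio. Both cover counting error only and are too narrow where reads copy 1 molecule. A host is the row of the same strand, itself without a snoRNA or microRNA symbol, that contains the member, or the one with the highest mean where several do. Loci join members within 10 kb.

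Members and lists were chosen with earlier results of these data known. Named members had at least 20 reads, or at least 10 reads with an interval off 1 or a 2-fold difference, or were among the 12 highest or 12 lowest. From each list up to 4 genes with large differences were taken. Other members, mostly cluster neighbours, and Dkc1, Drosha, Dgcr8, Ago1 and Cwc22 were chosen after their values were seen. Mdm2 comes from a list of 2 p53 genes of which 1 matched. Mature sequences of 3 rows were left out because RefSeq gives the opposite strand. Calculations used Python 3.11.15, numpy 2.4.6, pandas 2.3.3, scipy 1.17.1 and matplotlib 3.10.9, and were tested on simulated data.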

Additional observations from a re-analysis of the deposited data

How the results depend on the processing

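No paired analysis was possible because each condition had 1 library, which also leaves no replicate to leave out. The summed read ratio of all 223 members, 1.14, rested on the host transcripts. It was 1.02 without Mir100hgl, the member with the most reads, and 0.997 without both host transcript rows. Without a filter on the mean, 65 of 370 rows were 2-fold higher and 49 lower. At a mean of at least 5 FPKM (84 rows) these counts were 1 and 2, and with at least 10 reads 7 and 6. The median log2 difference of 0.02 was -0.11 in those 84 rows and -0.13 with at least 20 reads, the second added after the data were seen. Members with an interval above 1 against their host numbered 2, and 0 in those 84 rows, 1 with at least 10 reads and 1 with the shortest containing row of either strand as host. With pseudocounts of 0.1 and 1 FPKM, median centring or TPM, the 2-fold counts stayed between 13 and 22. The rescaling to TPM shifted the median of all rows to 0.04 and changed the sign of Mir1903, Mir2985 and Mir3583, all close to 0, among 113 named members. Symbols matched without regard to case gave the same 223 rows. Depth limits most of these rows: 138 of the 223 had under 20 reads.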
